A study of Mus musculus with 12 samples.

Results

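10 genes of matrix remodelling were followed in adult cardiomyocytes with and without desmin, the muscle intermediate filament protein encoded by Des. They were chosen by name, as the matricellular and crosslinking genes Postn, Tnc, Fn1, Thbs1, Thbs4, Sparc, Lox, Loxl1, Loxl2 and Cthrc1, and were found in each count table by gene symbol, 10 of 21493 genes listed. The choice was made with earlier results of these data known, so shares of all genes beside their counts are no independent test. All 10 passed the filter on low counts, which left 13158 genes. Poly-A RNA was sequenced from cardiomyocytes that had been isolated by enzymatic perfusion from the hearts of 3-month-old mice. The 4 groups were Des+/+ non-swim, Des+/+ swim, Des-/- non-swim and Des-/- swim, with 3 libraries each and 12 in all. Both copies of the gene are intact in Des+/+ and disrupted in Des-/- mice, and the swim groups had undergone swimming exercise as a mild stress. A library is a pool, which the study's methods describe as the cardiomyocytes of several mice. The methods also describe the mouse lines of both genotypes as carrying an αMHC-GFP reporter, driven by the promoter of a cardiomyocyte myosin gene, without saying whether the mice used for these libraries carried it.

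Matricellular proteins are secreted into the extracellular matrix and act there on cells and on the assembly of fibres more than as fibres themselves. Lysyl oxidases are copper-dependent enzymes that oxidise lysines of collagen and elastin, which then join into the crosslinks that stiffen a matrix. In the injured heart several of these genes are known from fibroblasts and from the fibroblasts' activated, scar-forming state, though not from them alone.

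Promoter sequence was available for Postn, Tnc, Thbs4 and Sparc, that is for 4 of the 10 genes. All 4 are shown, 1 run each, beside the genes whose levels follow. Each run is the 250 bases before an annotated start, 5′ to 3′ on the gene's strand, from RefSeq on GRCm38.p6. They lie at chr3:54360857-54361106 on the plus strand for Postn, and on the minus strand at chr4:64047016-64047265 for Tnc, chr13:92794819-92795068 for Thbs4 and chr11:55420081-55420330 for Sparc. Capitals mark matches, on either strand, to 4 motifs by their letters, namely TGANTCA for AP-1, GGAATG for TEAD factors, CAGAC for SMAD factors and TATAAA for a TATA box.
Postn: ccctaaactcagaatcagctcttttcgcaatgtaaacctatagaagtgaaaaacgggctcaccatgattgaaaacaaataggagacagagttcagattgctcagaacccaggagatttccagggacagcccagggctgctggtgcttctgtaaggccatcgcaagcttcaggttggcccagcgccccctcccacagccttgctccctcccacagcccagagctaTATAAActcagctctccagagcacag
Tnc: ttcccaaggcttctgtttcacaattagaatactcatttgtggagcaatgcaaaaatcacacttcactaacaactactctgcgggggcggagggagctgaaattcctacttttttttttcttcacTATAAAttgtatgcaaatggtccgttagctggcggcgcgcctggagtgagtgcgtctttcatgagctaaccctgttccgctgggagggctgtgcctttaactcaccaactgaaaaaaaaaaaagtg
Thbs4: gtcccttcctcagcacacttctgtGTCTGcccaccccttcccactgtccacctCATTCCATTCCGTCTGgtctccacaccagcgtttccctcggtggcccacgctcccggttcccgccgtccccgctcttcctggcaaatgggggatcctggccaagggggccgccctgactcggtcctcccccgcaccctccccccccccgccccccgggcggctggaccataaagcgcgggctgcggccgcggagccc
Sparc: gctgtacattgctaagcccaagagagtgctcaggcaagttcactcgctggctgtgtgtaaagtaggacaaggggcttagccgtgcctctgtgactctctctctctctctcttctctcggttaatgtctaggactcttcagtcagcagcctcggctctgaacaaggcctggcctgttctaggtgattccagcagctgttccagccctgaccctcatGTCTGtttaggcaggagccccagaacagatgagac
The letters TATAAA stood 26 to 21 bases before the start of Postn and 126 to 121 bases before that of Tnc, and they were in 12.4% of all 32851 promoter windows of the same length. In Thbs4 a pair of overlapping GGAATG matches, between 197 and 187 bases before the start, lay beside CAGAC matches at 226 to 222 and 186 to 182. Sparc held 1 CAGAC match, 35 to 31 bases before the start. GGAATG was in 12.6% and CAGAC in 42.2% of all windows, and TGANTCA, found in none of the 4 runs, in 6.75%. Thbs4 had the highest GC content of the 4, at 70.8%, and Tnc the lowest, at 44.8%. Postn and Tnc each had another annotated start whose run is not shown, and both of those runs held a CAGAC match, at 191 to 187 bases before the start in Postn and at 70 to 66 in Tnc. The other Tnc run overlapped the one shown and held the same TATAAA letters. Counted over both starts, CAGAC was thus found for all 4 genes, but 42.2% is a share of single windows and not of genes. For Postn the match lay only at the other start, where the sequence past the start was found in no GENCODE transcript of the gene.

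Reads in genes ranged from 4320819 to 12072443 per library and were lowest in the Des-/- swim group, where they ran from 4320819 to 6521963. The targeted gene, Des, fell from 2367 ± 1137 CPM (read counts scaled to the library total; SD, n = 3) in Des+/+ non-swim to 59.5 ± 11.3 (SD, n = 3) in Des-/- non-swim libraries (log2 change -5.31). All 10 cardiomyocyte markers were detected in every library. Their summed level ran from 65516 to 98074 CPM in Des+/+ non-swim and from 5931 to 28844 in Des-/- non-swim libraries. The summed level of 10 fibroblast markers ran from 6158 to 7472 CPM in the former and from 12356 to 39422 in the latter group, and that of 9 macrophage markers from 205 to 312 and from 381 to 4134. After swimming the fibroblast sum was 5336 to 6596 CPM in Des+/+ and 8581 to 14849 in Des-/- libraries, the macrophage sum 244 to 304 and 214 to 1327, and the cardiomyocyte sum 31335 to 51280 and 14452 to 25654. No gene of these 3 lists was at 0 in any library. In RNA from many cells, fewer cells of a type and less RNA per cell cannot be told apart. The Des-/- libraries numbered 3, 1 from the non-swim and 1 from the swim group, stood apart from the others of their groups, so results are given with and without them. In Des-/- non-swim, replicate 3 had a macrophage sum of 4134 CPM, against 628 and 381 in replicates 1 and 2. Its cardiomyocyte sum was 5931 CPM against 13278 and 28844, and its fibroblast sum 39422 against 16615 and 12356. Its share of reads in no gene was 34.2%, against 52.3% and 49.0%. In Des-/- swim, replicate 3 also had the highest fibroblast and macrophage sums and the lowest cardiomyocyte sum.

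CPM values are on the scale of TMM, edgeR's default library scaling. Changes are log2 values with their standard error (SE), a positive one meaning higher in Des-/- or in swim libraries. Calls were made at an adjusted p under 0.05 in edgeR's quasi-likelihood test over all 13158 genes, and each adjusted p below is from that test unless DESeq2 is named.

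Without swimming, 8 of the 10 genes were called higher in Des-/- cardiomyocytes, with log2 changes from 1.67 for Loxl2 to 5.04 for Tnc. The remaining pair, Lox and Sparc, also had positive changes. Of all genes tested, 14.0% were called higher. Higher genes made up 43.7% of the 4210 called, and 55.1% with upper-quartile scaling, under which the median of all genes rose to 0.14 and all 10 changes stayed positive. The median change of the 10 genes was 3.24, against 0.04 for all genes tested. For all 10, every Des-/- non-swim library lay above every Des+/+ non-swim library, which held for 23.0% of all genes. DESeq2 gave an adjusted p to 6 of the 10 and called all 6 higher, Sparc included, against 17.2% of all genes with one. In none of the 5 contrasts did it give one to Postn, Tnc, Lox and Cthrc1, so its calls say nothing on these genes. In these, replicate 3 of Des-/- non-swim was 7.47 to 29.3 times the mean of replicates 1 and 2, against 1.61 to 9.38 times in the other genes. Their mean counts over the 12 libraries ran from 103 to 7105, against 254 for Thbs4, which had an adjusted p. The reason was not tested.

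Other marker lists moved between the same groups. For comparison, 14.0% of all genes were called higher and 18.0% lower without swimming, and 5.01% and 5.57% after it. Of 8 immediate-early and heat shock genes, which are known to respond to tissue dissociation, 7 were called higher in Des-/- non-swim libraries (Fos, Fosb, Jun, Egr1, Atf3, Ier2 and Hspa1a), and their sum ran from 921 to 1514 CPM in Des+/+ and from 3069 to 5926 CPM in Des-/- libraries. All 5 erythrocyte genes tested, of 6 listed, were called higher, with a sum from 179 to 546 CPM against 1470 to 4580 CPM. Of 6 markers of activated fibroblasts 5 were called higher (Meox1, Cilp, Fap, Mfap4 and Ltbp2, but not Acta2), with a sum from 525 to 633 CPM against 762 to 2144 CPM. The sums of these 3 lists were highest in replicate 3 of Des-/- non-swim and did not overlap between the groups. None of 7 endothelial, 7 mural and 4 mesothelial markers was called higher, and 1 mural marker, Abcc9, was lower. Without both Des-/- libraries numbered 3, 6 of the 8, all 5 and 5 of the 6 genes were called higher, against 13.6% of all genes. The endothelial markers Tie1 and Egfl7 were then called higher as well. After swimming 5 of the 8 immediate-early and heat shock genes, 0 of the 5 erythrocyte genes and 3 of the 6 activated fibroblast markers were called higher, and the sums ran from 1193 to 1547 CPM in Des+/+ against 2389 to 3780 CPM in Des-/-, from 1391 to 2175 against 491 to 2919, and from 324 to 496 against 499 to 1840. The part of these lists in the changes of the 10 genes was not tested.

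**Figure D1:**
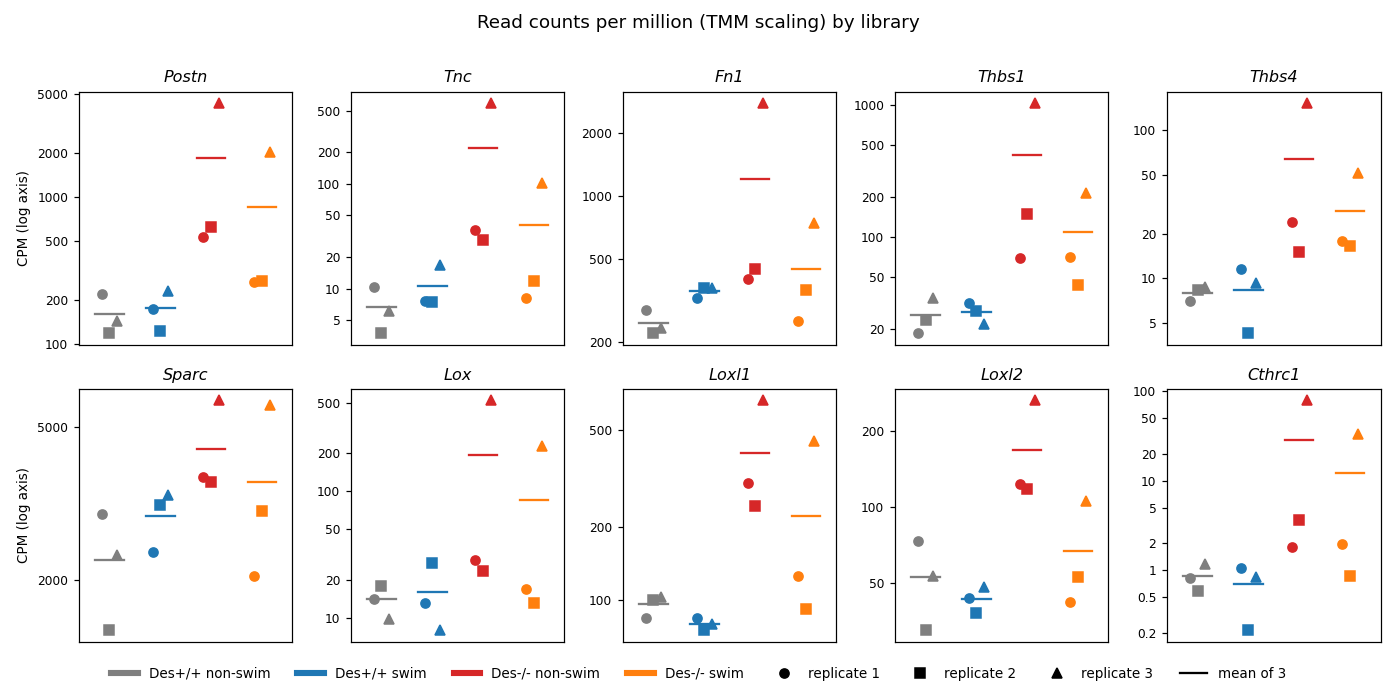
Level of each gene in CPM, on a log axis that differs between panels, in the 3 libraries of each of the 4 groups, with symbols for the replicate number and a line at the mean. Replicate 3 of Des-/- non-swim, the red triangle, is the highest point in all 10 panels, and the red points lie above all grey ones.

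Among the matricellular genes, Postn encodes periostin, a secreted integrin ligand that takes part in collagen assembly and is a known product of activated cardiac fibroblasts. It lies on GRCm38 chromosome 3, 54361109 to 54391037, plus strand. Its level was 221, 119 and 144 CPM in Des+/+ non-swim and 538, 625 and 4343 CPM in Des-/- non-swim libraries. The lowest Des-/- library was thus above the highest Des+/+ library, but replicate 3 was 7.47 times the mean of the other two. The log2 change was 3.51 (SE 0.96, adjusted p 0.0176). Without replicate 3 of Des-/- non-swim it was 1.85 and no longer called (adjusted p 0.0860), and without both Des-/- libraries numbered 3 it was 1.91 (adjusted p 0.00116).

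Tnc, on chromosome 4 (63959785 to 64047015, minus strand), encodes tenascin-C, a glycoprotein of embryonic and healing tissue. It was measured at 10.3, 3.74 and 6.05 CPM in Des+/+ non-swim and at 36.1, 29.2 and 593 CPM in Des-/- non-swim libraries. The groups did not overlap, and replicate 3 of Des-/- was 18.1 times the mean of its companions. The change was the largest of the 10 genes (log2 5.04, SE 1.33, adjusted p 0.0148). It fell to 2.30 without that library (adjusted p 0.0794) and was 2.35 without both libraries numbered 3 (adjusted p 0.00246).

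Thbs1 encodes thrombospondin-1, a ligand of CD47 and CD36 that can activate latent TGF-β, and lies on chromosome 2 (118111876 to 118127133, plus strand). Its level was 18.7, 23.5 and 34.8 CPM in Des+/+ non-swim and 69.7, 150 and 1032 CPM in Des-/- non-swim libraries. All 3 Des-/- libraries were above the Des+/+ range, again with replicate 3 highest. The log2 change was 4.02 (SE 0.93, adjusted p 0.00790), and it remained past the threshold without replicate 3 of Des-/- non-swim (log2 2.09, adjusted p 0.0199) and without both libraries numbered 3 (log2 2.16, adjusted p 0.00151).

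Thbs4, the thrombospondin known from tendon and striated muscle, lies on chromosome 13 (92751590 to 92794818, minus strand). Des+/+ non-swim libraries held it at 7.07, 8.30 and 8.75 CPM, a narrow range, and Des-/- non-swim libraries at 24.0, 15.1 and 151 CPM. The change was 2.98 (SE 0.80, adjusted p 0.0159). Without replicate 3 of Des-/- non-swim it was 1.28 (adjusted p 0.0819), and without both libraries numbered 3 it was 1.35 (adjusted p 0.0129).

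Sparc encodes osteonectin, a collagen-binding protein involved in procollagen processing, and lies on chromosome 11 (55394500 to 55423183, minus strand). Its level was 2961, 1481 and 2330 CPM in Des+/+ non-swim and 3692, 3585 and 5859 CPM in Des-/- non-swim libraries. The groups did not overlap, but Sparc had the smallest change of the 10 genes (log2 0.96, SE 0.39) and was not called (adjusted p 0.0820), whereas DESeq2 called it (adjusted p 0.0250). Without both libraries numbered 3 the change was 0.75 (adjusted p 0.0803).

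Cthrc1, a secreted protein named for its collagen triple helix repeat and known from activated fibroblasts, lies on chromosome 15 (39076932 to 39087121, plus strand). It was near the detection limit in Des+/+ non-swim libraries, with 7, 5 and 13 reads (0.825, 0.584 and 1.17 CPM). In Des-/- non-swim libraries it had 17, 32 and 910 reads (1.81, 3.62 and 79.6 CPM). Replicate 3 was 29.3 times the mean of the other two, the widest such gap of the 10 genes. The change was 5.0 (SE 1.62, adjusted p 0.0350), and 1.61 without that library (adjusted p 0.367) and 1.68 without both numbered 3 (adjusted p 0.0568).

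Fn1 encodes fibronectin, the glycoprotein on which other matrix proteins assemble, and lies on chromosome 1 (71585520 to 71653200, minus strand). Its level was 284, 220 and 232 CPM in Des+/+ non-swim and 401, 448 and 2768 CPM in Des-/- non-swim libraries. Replicates 1 and 2 of Des-/- stood moderately above the Des+/+ range and replicate 3 far above it. The change was 2.30 (SE 0.66, adjusted p 0.0216). Without replicate 3 of Des-/- non-swim it was 0.80 (adjusted p 0.114), and without both libraries numbered 3 it was 0.86 (adjusted p 0.00629).

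Of the 3 crosslinking enzymes, Loxl1 and Loxl2 were called and Lox was not. Loxl1, which acts on elastic fibres, lies on chromosome 9 (58287738 to 58313186, minus strand). It was measured at 84.2, 100.4 and 103 CPM in Des+/+ non-swim and at 303, 243 and 665 CPM in Des-/- non-swim libraries. Its Des-/- libraries were closer together than those of Postn or Tnc, and the change was 2.07 (SE 0.54, adjusted p 0.0135). It was still called without replicate 3 of Des-/- non-swim (log2 1.51, adjusted p 0.0473) and without both libraries numbered 3 (log2 1.58, adjusted p 5.99e-04).

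Loxl2, a lysyl oxidase that acts on collagen of basement membranes among others, lies on chromosome 14 (69609068 to 69695834, plus strand). It was at 73.4, 32.5 and 53.1 CPM in Des+/+ non-swim and at 123, 118 and 266 CPM in Des-/- non-swim libraries. The groups were apart and the change was 1.67 (SE 0.41, adjusted p 0.0108). Without replicate 3 of Des-/- non-swim it was 1.19 (adjusted p 0.0366), and without both libraries numbered 3 it was 1.25 (adjusted p 0.00612). The 7 exonic bases that Loxl2 shares with the microRNA gene Mir6950 were the only overlap of any of the 10 genes with another counted gene.

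Lox, the founding enzyme of the family, lies on chromosome 18 (52516067 to 52529867, minus strand). Its levels of 14.1, 18.0 and 9.83 CPM in Des+/+ non-swim libraries stood against 28.8, 23.3 and 523 CPM in Des-/- non-swim libraries. Replicates 1 and 2 of Des-/- were 1.86 times the Des+/+ mean on average, and replicate 3 was 20.1 times their mean. The log2 change of 3.78 (SE 1.34) missed the threshold narrowly (adjusted p 0.0501), and without both libraries numbered 3 it was 0.97 (adjusted p 0.102).

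Thbs1, Loxl1 and Loxl2 were the genes called in each of the 12 fits that left out 1 library. Without replicate 3 of Des-/- non-swim they were the only 3 of the 10 called, against 6.84% of all genes called higher in that fit. Without replicate 2 or replicate 3 of Des+/+ non-swim the same 3 were called (6.40% and 7.10% of all genes), and without replicate 1 of that group 5 were (9.05%). Without both Des-/- libraries numbered 3, 7 of the 10 were called, all but Sparc, Lox and Cthrc1, against 13.6% of all genes. Replicate 3 of Des-/- non-swim was the highest of the 12 libraries for all 10 genes, against 20.6% of all genes, and replicate 3 of Des-/- swim was the second highest for all but Loxl2.

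After swimming, none of the 10 genes was called between the genotypes, against 5.01% of all genes called higher. At an unadjusted p under 0.05, 5 of them were higher in Des-/- (Postn, Thbs1, Thbs4, Loxl1 and Cthrc1), against 14.7% of all genes. DESeq2 called 1 of the 6 to which it gave an adjusted p, Loxl1 (adjusted p 0.0244), against 8.54%. Des-/- swim libraries lay above all Des+/+ swim libraries for Postn, Thbs1, Thbs4 and Loxl1, that is for 4 of 10 genes against 17.3% of all genes. All 10 changes were above 0 with a median of 1.87, against 0.02 for all genes.

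**Figure D2:**
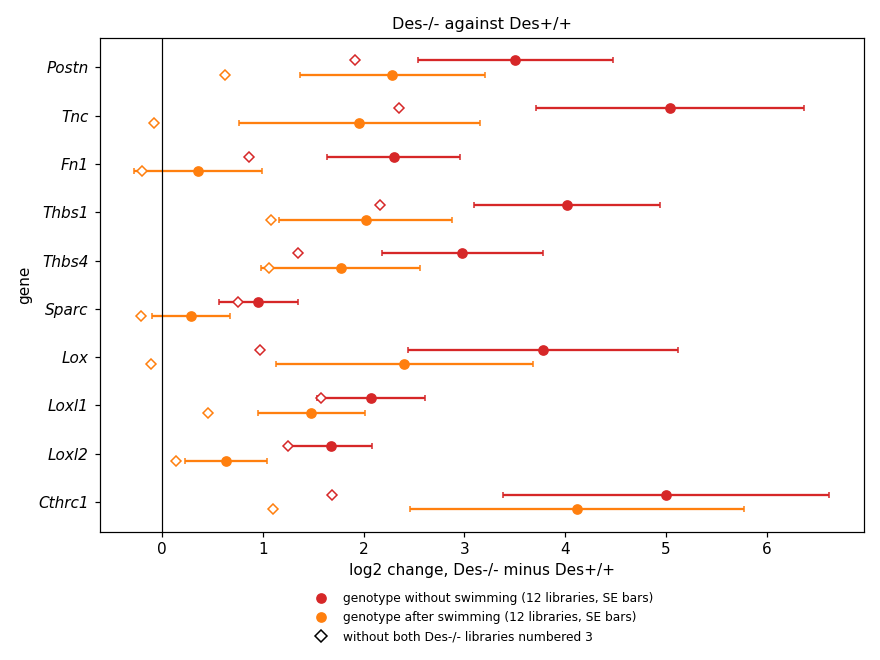
Log2 change between Des-/- and Des+/+ for each gene, without swimming in red and after swimming in orange, with bars of 1 SE from the fit of 12 libraries; open diamonds give the change without both Des-/- libraries numbered 3. Every filled point is right of 0, from 0.29 for Sparc after swimming to 5.04 for Tnc without swimming, and the diamonds of Tnc, Fn1, Sparc and Lox after swimming lie left of it.

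Postn was at 175, 123 and 229 CPM in Des+/+ swim and at 265, 270 and 2031 CPM in Des-/- swim libraries (log2 2.29, SE 0.92, adjusted p 0.120). Thbs1 was at 31.7, 27.7 and 22.1 CPM in the former and at 70.4, 43.5 and 216 CPM in the latter (log2 2.02, SE 0.86, adjusted p 0.139). In both genes the Des-/- libraries were all above the Des+/+ ones, and replicate 3 was highest. Thbs4 was at 11.6, 4.28 and 9.25 CPM in Des+/+ swim and 17.9, 16.4 and 51.0 CPM in Des-/- swim libraries (log2 1.78, SE 0.79, adjusted p 0.154). Loxl1 was at 84.3, 75.0 and 79.7 CPM in Des+/+ swim and 126, 91.4 and 450 CPM in Des-/- swim libraries (log2 1.48, SE 0.53, adjusted p 0.0884). Replicate 2 of Des-/- swim was thus close to the Des+/+ range for Loxl1.

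The other 6 genes overlapped between the genotypes after swimming. Tnc had 7.68, 7.38 and 16.6 CPM in Des+/+ swim and 8.11, 11.8 and 102 CPM in Des-/- swim libraries (log2 1.96, SE 1.20, adjusted p 0.288). Lox had 13.0, 27.3 and 7.97 CPM against 16.8, 13.1 and 227 CPM (log2 2.41, SE 1.28, adjusted p 0.224). In both, replicates 1 and 2 of Des-/- swim lay within the Des+/+ range and replicate 3 lay far above it. Cthrc1 had 9, 2 and 6 reads in Des+/+ swim libraries and 14, 4 and 219 reads in Des-/- swim libraries (log2 4.12, SE 1.66, adjusted p 0.121). Fn1, at 325, 361 and 362 CPM against 253, 352 and 738 CPM, had a change of 0.36 (SE 0.63, adjusted p 0.731). Sparc and Loxl2 also had small changes, of 0.29 (SE 0.39, adjusted p 0.646) and 0.63 (SE 0.41, adjusted p 0.317).

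The direction of some changes after swimming depended on the libraries numbered 3. Without both of them edgeR called 0 of the 10 genes, as it did with all libraries, against 5.71% of all genes. At an unadjusted p under 0.05, 4 were then higher (Postn, Thbs1, Thbs4 and Loxl1, against 14.8% of all genes). The changes of Tnc, Fn1, Sparc and Lox then went below 0, to -0.08, -0.20, -0.21 and -0.11. Replicates 1 and 2 of Des-/- swim averaged 2.10 times the Des+/+ swim mean for Thbs1, 2.05 times for Thbs4 and 1.52 times for Postn. Leaving out replicate 3 of Des-/- non-swim, which is in neither group compared but enters the shared estimate of spread, gave 5 calls after swimming (7.52% of all genes), namely Postn, Thbs1, Thbs4, Loxl1 and Cthrc1.

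Swimming in Des+/+ mice was compared next. None of the 10 genes was called (0.0912% of all genes were called higher), none was higher at an unadjusted p under 0.05 (8.46%) and none of 6 by DESeq2 (4.76%). Fn1 was the only gene whose groups did not overlap, at 284, 220 and 232 CPM before and 325, 361 and 362 CPM after swimming (12.5% of all genes). Its log2 change was 0.51 (SE 0.63, adjusted p 0.684). The 10 changes ran from -0.33 for Cthrc1 to 0.65 for Tnc, with a median of 0.10 against -0.08 for all genes. The intervals were wide, the 95% interval for Postn running from -1.80 to 2.04 and that for Sparc from -0.47 to 1.23.

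**Figure D3:**
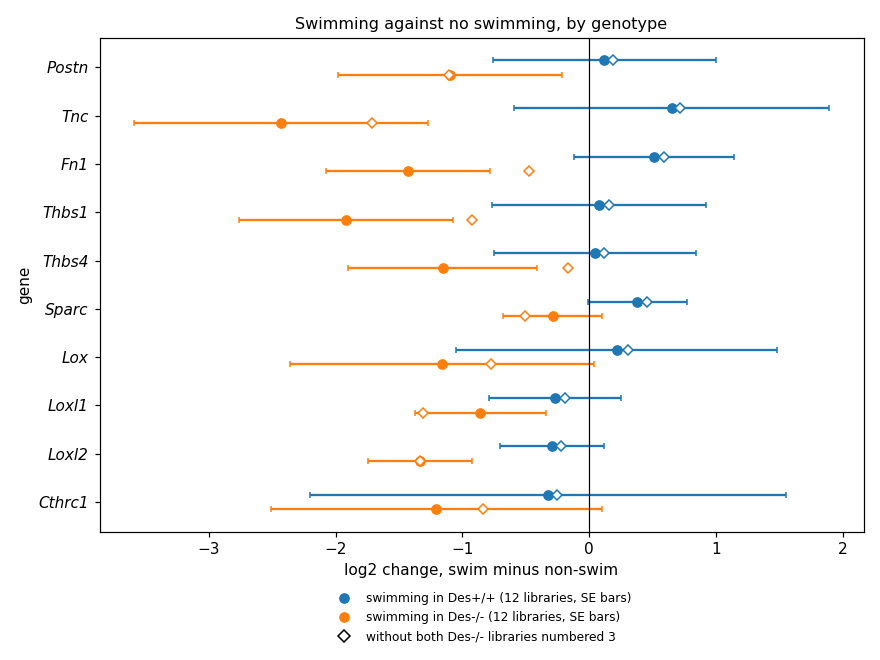
Log2 change between swim and non-swim libraries for each gene, in Des+/+ in blue and in Des-/- in orange, with bars of 1 SE from the fit of 12 libraries; open diamonds give the change without both Des-/- libraries numbered 3. The orange points lie left of 0 for all 10 genes, from -2.43 for Tnc to -0.29 for Sparc, and the blue ones between -0.33 and 0.65.

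In Des-/- mice all 10 genes had lower mean levels after swimming than without it, and none was called (0% of all genes were called lower). At an unadjusted p under 0.05, 3 genes were lower (Fn1, Thbs1 and Loxl2), against 8.96% of all genes. Loxl2 was the only gene whose groups did not overlap (9.00% of all genes), at 123, 118 and 266 CPM without and 42.2, 52.7 and 106 CPM after swimming. Its change was -1.33 (SE 0.41, adjusted p 0.199), and DESeq2 called it (adjusted p 0.0473, against 1.09% of all genes called lower). Tnc had the largest change (log2 -2.43, SE 1.16, adjusted p 0.313), followed by Thbs1 (log2 -1.92, SE 0.84, adjusted p 0.285).

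Libraries of the 2 Des-/- groups with the same number tended to deviate together (correlations 0.365, 0.316 and 0.602). That they are paired is a hint from the data only. Lower after swimming in all 3 numbered pairs were 7 of the 10 genes (Postn, Tnc, Fn1, Sparc, Lox, Loxl1 and Loxl2), which held for 24.5% of all genes. Without replicate 3 of the non-swim group alone, which leaves replicate 3 of the swim group without its pair, the changes of Postn, Tnc, Fn1, Thbs1, Thbs4, Lox and Cthrc1 were above 0, from 0.01 for Thbs1 to 2.17 for Cthrc1, while those of Sparc, Loxl1 and Loxl2 stayed below it. Without the whole pair numbered 3 all 10 changes were below 0, and Loxl1 was called (log2 -1.31, adjusted p 0.0142), against 0.431% of all genes called lower. In replicates 1 and 2, Loxl1 went from 303 and 243 CPM without swimming to 126 and 91.4 CPM after it.

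The difference between the swimming changes of the 2 genotypes was tested as an interaction. None of the 10 genes was called (0% of all genes were called lower), none had an unadjusted p under 0.05 with a lower change in Des-/- (6.20% of all genes), and DESeq2 called none of 6 (1.37%). All 10 differences were below 0, from -3.08 for Tnc (SE 1.68, adjusted p 0.371) to -0.59 for Loxl1 (SE 0.73, adjusted p 0.699). Their median was -1.21, against 0.03 for all genes. The interval for Fn1, whose unadjusted p was the lowest of the 10, ran from -3.92 to 0.03.

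Because fibroblast marker levels also differed between the groups, each gene was expressed as a percentage of the summed fibroblast markers of its library. The 10 markers were Pdgfra, Dcn, Lum, Col1a1, Col1a2, Col3a1, Tcf21, Dpt, Gsn and Mfap5. Without swimming, Des-/- libraries lay above all Des+/+ libraries on this scale for 2 of the 10 genes, Tnc and Loxl1, against 0.904% of all genes, and the groups overlapped for the other 8. The marker sum was itself higher in every Des-/- non-swim library, so dividing by it moved genes down. On this scale 79.4% of all genes lay below without overlap, and the 0.904% is no neutral background. Tnc was 0.152%, 0.0607% and 0.0809% of the marker sum in Des+/+ non-swim and 0.218%, 0.236% and 1.503% in Des-/- non-swim libraries. Loxl1 was 1.25%, 1.63% and 1.38% in the former and 1.82%, 1.97% and 1.69% in the latter, here with replicate 3 the lowest of its group. Postn was 3.27%, 1.93% and 1.93% against 3.24%, 5.06% and 11.0%, so that replicate 1 of Des-/- lay within the Des+/+ range.

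**Figure D4:**
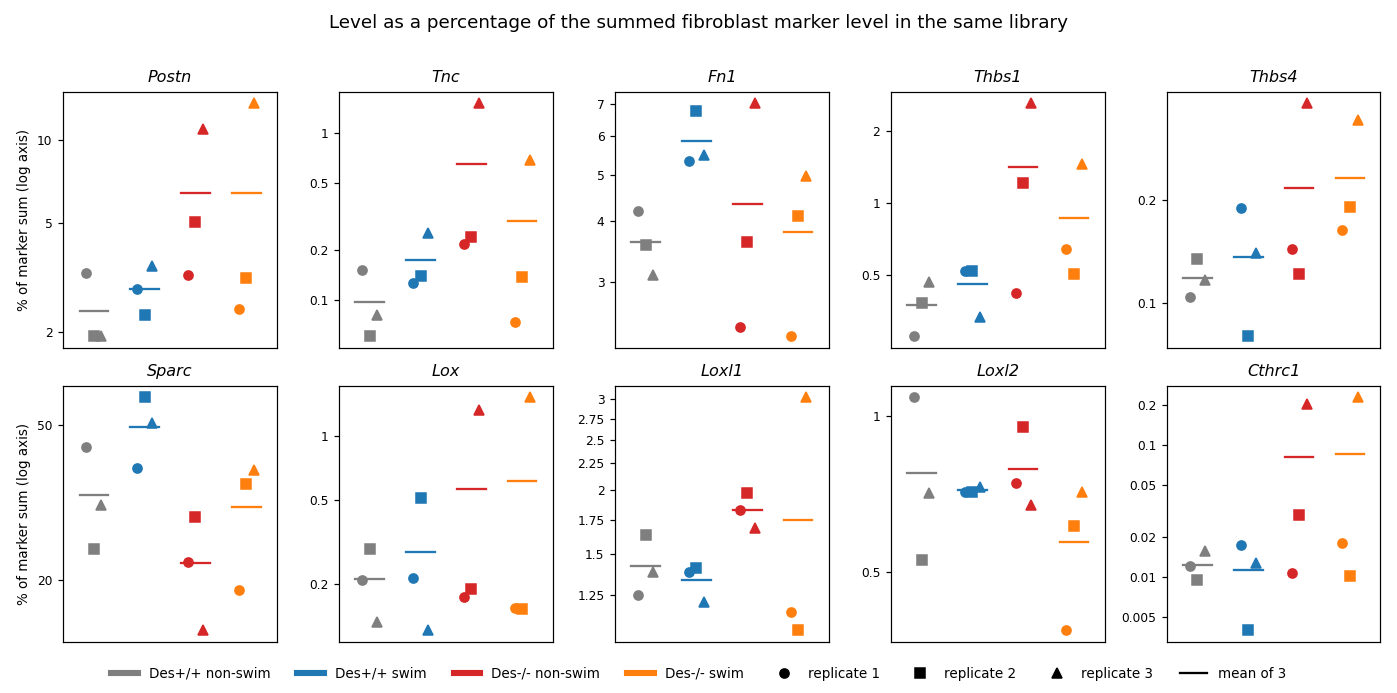
Level of each gene as a percentage of the summed CPM of 10 fibroblast markers in the same library, on a log axis that differs between panels, with symbols for the replicate number and a line at the mean. Red points lie above all grey points for Tnc and Loxl1 only, and the red and orange triangles, replicate 3 of the Des-/- groups, remain the highest points for Postn, Tnc, Thbs1, Thbs4, Lox and Cthrc1.

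Of the others, Sparc went the opposite way on this scale, at 43.8%, 24.1% and 31.2% of the marker sum in Des+/+ non-swim and 22.2%, 29.0% and 14.9% in Des-/- non-swim libraries, with overlap. After swimming no gene was above, and Fn1 and Sparc were below in every Des-/- library (2 of 10 genes, against 61.4% of all genes). Fn1 was 5.34%, 6.76% and 5.50% in Des+/+ swim and 2.32%, 4.10% and 4.97% in Des-/- swim libraries. When only the 7 markers that are not collagens were summed, a choice made after the data were seen, 5 genes were above without swimming (Postn, Tnc, Thbs1, Thbs4 and Loxl1, against 2.66% of all genes) and 0 after it (2.08%). Shares of all genes on either scale depend on how far the marker sum itself moved. The part of cell mix in the genotype differences was not tested.

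Levels of the genes were also set in order, per kilobase of exon, so that long and short transcripts can be compared. In Des+/+ non-swim libraries Sparc led with 596 ± 196 CPM per kb (SD, n = 3), followed by Loxl1 at 29.1 ± 3.12, Fn1 at 21.0 ± 2.89, Postn at 18.6 ± 6.11 and Loxl2 at 9.81 ± 3.79. Below them came Thbs1 at 4.23 ± 1.36, Lox at 2.93 ± 0.855, Thbs4 at 2.44 ± 0.264, Tnc at 0.859 ± 0.425 and Cthrc1 at 0.540 ± 0.186 CPM per kb (SD, n = 3 each). The ranges of neighbours overlapped between Fn1 and Postn, between Thbs1, Lox and Thbs4 in turn, and between Tnc and Cthrc1. In Des-/- non-swim libraries Sparc was still first at 1156 ± 339 CPM per kb, and Postn was second at 211 ± 250 CPM per kb, with Loxl1 at 122 ± 69.2 and Fn1 at 103 ± 116 after it (SD, n = 3 each). The ranges of Postn, Loxl1 and Fn1 overlapped there.

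Within the lysyl oxidase family, per kilobase of exon, Loxl1 made up 55.6%, 69.1% and 67.1% of the 5 members' summed level in Des+/+ non-swim libraries and 70.5%, 67.9% and 50.1% in Des-/- non-swim libraries. Lox made up 6.45%, 8.55% and 4.41% in the former and 4.63%, 4.49% and 27.2% in the latter. Its share was highest in replicate 3 of Des-/- non-swim and, at 19.5%, in replicate 3 of Des-/- swim, where the other Des-/- swim libraries had 6.32% and 5.95%. The next highest share was 14.5%, in replicate 2 of Des+/+ swim. Loxl2 held 16.6% ± 3.98 in Des-/- non-swim and 21.4% ± 7.98 in Des+/+ non-swim libraries (SD, n = 3 each).

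**Figure D5:**
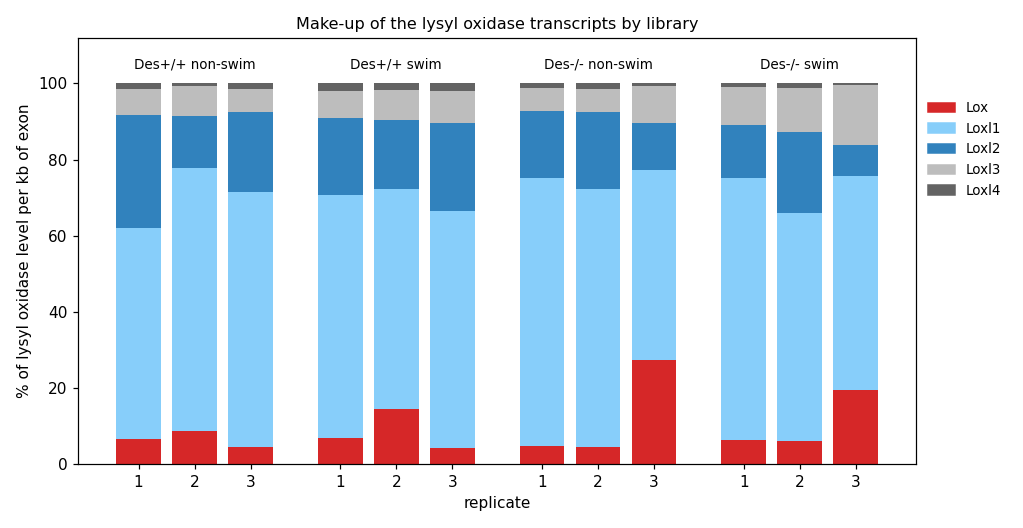
Share of each lysyl oxidase gene, in percent of the family's summed level per kb of exon, in each of the 12 libraries. Loxl1, in light blue, is the largest share in all 12, and Lox, in red, has its largest share, 27.2%, in the third bar of the Des-/- non-swim libraries.

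Among the 5 thrombospondins (Thbs1 to Thbs4 and Comp), Thbs1 made up 16.2%, 18.1% and 21.4% of the summed level per kb in Des+/+ non-swim and 13.9%, 36.3% and 57.5% in Des-/- non-swim libraries. Thbs4 held 11.3%, 11.8% and 9.92% in the former and 8.82%, 6.72% and 15.6% in the latter. The largest share in Des-/- non-swim replicate 1 was that of Comp, at 49.9%, and in replicate 3 that of Thbs1. After swimming Comp held 61.9%, 59.4% and 42.3% in Des-/- libraries, against 28.6%, 13.4% and 21.7% in Des+/+ libraries.

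Other genes of the same kinds were followed as 3 lists. Of 21 other matricellular genes 16 passed the filter, and without swimming 8 were called higher and 0 lower in Des-/-, against 14.0% and 18.0% of all genes. The median change was 1.21. Spp1, which encodes osteopontin, had the largest change (log2 7.06, SE 1.98, adjusted p 0.0190), with a level of 1.89 ± 0.101 CPM in Des+/+ and 253 ± 429 CPM in Des-/- libraries (SD, n = 3 each). Comp, a cartilage and tendon thrombospondin, went from 14.3 ± 7.43 to 91.6 ± 35.6 CPM (SD, n = 3 each; log2 2.67, SE 0.44, adjusted p 0.00151), and Thbs3 from 14.2 ± 2.44 to 48.8 ± 22.3 CPM (SD, n = 3 each; log2 1.78, SE 0.28, adjusted p 0.00122). After swimming 2 of the 16 were called higher and 0 lower, against 5.01% and 5.57% of all genes. These were Comp (log2 3.18, SE 0.45, adjusted p 0.00887) and Thbs3 (log2 1.23, SE 0.27, adjusted p 0.0217).

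Of 20 other crosslinking and collagen-processing genes, all tested, 12 were called higher and 1 lower without swimming, against 14.0% and 18.0% of all genes. Their median change was 0.89. P4ha3, a subunit of collagen prolyl hydroxylase, rose from 0.713 ± 0.366 to 19.5 ± 25.7 CPM (SD, n = 3 each; log2 4.71, SE 1.26, adjusted p 0.0154). The lysyl oxidase gene Loxl3 rose from 14.4 ± 1.62 to 83.3 ± 86.2 CPM (SD, n = 3 each; log2 2.53, SE 0.82, adjusted p 0.0354). Adamts2, a procollagen N-proteinase, rose from 64.4 ± 8.31 to 356 ± 265 CPM (SD, n = 3 each; log2 2.46, SE 0.58, adjusted p 0.00863). The gene that fell, named after its value was seen, was P4ha2, another prolyl hydroxylase subunit (log2 -0.71, SE 0.19, adjusted p 0.0173). After swimming 2 were called higher, Pcolce and Pcolce2, which encode enhancers of procollagen C-proteinase, and P4ha2 was again lower. Over all genes 5.01% were then called higher and 5.57% lower.

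Of 14 receptors of these proteins, 5 were called higher and 1 lower without swimming, and none after it. Over all genes the shares called higher and lower were 14.0% and 18.0% without swimming, and 5.01% and 5.57% after it. Lrp1, an endocytic receptor of thrombospondins, rose by a log2 of 1.76 (SE 0.32, adjusted p 0.00263), from 334 ± 31.0 to 1129 ± 615 CPM (SD, n = 3 each). Stab1, which takes up SPARC, rose by 1.26 (SE 0.37, adjusted p 0.0225), and the integrin subunit Itgb3 rose by 1.21 (SE 0.20, adjusted p 0.00153). The receptor that was lower, named after its value was seen, was Cd36, a fatty acid and thrombospondin receptor (log2 -0.85, SE 0.22, adjusted p 0.0148). Without both libraries numbered 3 the counts without swimming were 8 higher and 0 lower of the 16 matricellular genes, 10 and 0 of the 20 processing genes, and 5 and 1 of the 14 receptors, against 13.6% of all genes called higher. Spp1 was not among the 8 then. After swimming the counts without these libraries were 3 and 0 of the 16 (Thbs3, Comp and Tgfbi), 5 and 1 of the 20 (Loxl3, Bmp1, Pcolce, Pcolce2 and Adamts2 higher, P4ha2 lower) and 0 and 1 of the 14 (Itgb1 lower), against 5.71% of all genes called higher.

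Profiles over the 12 libraries were compared by the mean absolute difference between log2 CPM values, each gene centred on its own mean, among 12968 genes with a mean of at least 1 CPM. Fn1 and Sparc were the closest pair of the 10, 0.34 apart, but 83 other genes lay closer to Fn1 and 871 closer to Sparc. Tnc and Postn were 0.41 apart, and Postn was the nearest of all genes to Tnc. The nearest gene to Postn was Fcer1g (0.26), with Col1a1 second (0.29). The nearest to Fn1 was Was (0.20), to Thbs1 Cd84 (0.32), to Thbs4 Snx20 (0.21), and to Sparc Cmtm3 (0.14). Lox was nearest to Mpeg1 (0.42), Loxl1 to Adcy7 (0.16), Loxl2 to Amz1 (0.17) and Cthrc1 to Rgs1 (0.32). Loxl1 and Loxl2 were each other's nearest gene among the 10, 0.38 apart, but 171 and 230 other genes lay closer to them.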

How the data were processed

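Poly-A RNA of adult mouse cardiomyocytes was measured in 4 groups of 3 libraries, grouped by the sample labels. The deposited values were raw read counts per gene: the authors aligned single-end reads to GRCm38 with HISAT2 2.2.1, sorted them with SAMtools 1.13 and counted with HTSeq in its reverse-strand mode, per the labels and the study's methods. The kit is unstranded per the labels and directional per the methods. Reads that fell in no listed gene (34.0% to 64.5% of those counted in genes, in no gene or as ambiguous) were left out of library sizes, and their share was highest in the Des-/- swim group.

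Tests were run with edgeR 4.0.16 in R 4.3.3 (filterByExpr, TMM, 1 model of 4 group means with 8 residual degrees of freedom, quasi-likelihood tests of 5 contrasts, Benjamini-Hochberg adjustment). Standard errors were taken as the change divided by the root of the test's F, and 95% intervals from its degrees of freedom. DESeq2 1.42.0, 2 other scalings, no filter, fits of the 6 libraries compared, a replicate block, leaving out each library and leaving out both Des-/- libraries numbered 3 were the alternatives. The procedure was tested on simulated counts. These were drawn for each gene on its own, with no library set apart and no paired libraries, so the simulation does not cover those features of the data. Exon length and positions came from GENCODE M21. Exact tests of 3 against 3 libraries were not used. The members and gene lists were chosen with earlier results of these data known. All 10 genes are named; from each list the 3 called genes with the largest change and a mean count of at least 20, and for each gene its nearest profile, are named.

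Replicate numbers were checked as pairs by the correlation of deviations from group means. Only between the Des-/- groups was every correlation over 0.1 (0.365, 0.316 and 0.602), so there the numbers may pair the libraries, which is a hint from the data only. Between the genotypes after swimming each library also matched its own number best, at lower correlations (0.0189, 0.125 and 0.116). Correlations between the genotypes without swimming were -0.153, 0.134 and -0.105. Those between the Des+/+ groups were -0.410, -0.257 and 0.00599. P-values measure the spread between pools, which may be partly technical. No 2 libraries of a group agreed within sampling noise. In the shallowest library a floor of 3 counts equals 0.656 CPM, which covers counting error only.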

Additional observations from a re-analysis of the deposited data

How the results depend on the processing

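The comparison of genotypes without swimming kept 6 to 9 calls among the 10 genes under the other settings (9 with RLE scaling, upper-quartile scaling or no filter, 6 in the fit of only the libraries compared, 8 with the replicate block, 7 without both Des-/- libraries numbered 3), and 3 to 10 when 1 library was left out. DESeq2 gave no adjusted p to Postn, Tnc, Lox and Cthrc1, so its calls say nothing on them and they are not counted as lost. Over all genes 4210 were called, and 2612 to 4590 when 1 library was left out.

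After swimming, DESeq2 called 1 of the 10 genes and leaving out 1 library gave 0 to 5. Over all genes 1392 were called, against 2332 with DESeq2 and 74 to 2142 when 1 library was left out. Upper-quartile scaling moved the share called higher from 47.3% to 67.5%. Leaving out 1 library, the changes ran from -0.0901 to 2.45 for Tnc, -0.21 to 0.64 for Fn1, -0.21 to 0.56 for Sparc and -0.11 to 3.02 for Lox, lowest without replicate 3 of Des-/- swim. Without both libraries numbered 3 these were -0.0783, -0.20, -0.21 and -0.11.

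For swimming in Des+/+, 12 genes in all were called, 54 with RLE scaling (87.0% higher, against 100% with TMM or upper-quartile scaling), 58 without the filter, 812 with DESeq2 (490 higher), 282 in the fit of 6 libraries, 19 with the replicate block, 743 without both libraries numbered 3 (581 higher), and 0 to 155 when 1 library was left out. With the block the changes of Postn and Thbs4 were -0.0434 and -0.0123. Leaving out 1 library, they ran from -0.12 to 0.41 for Postn, -0.10 to 0.36 for Thbs1, -0.27 to 0.37 for Thbs4, -0.41 to 0.53 for Lox, -0.55 to 0.0127 for Loxl2 and -0.78 to 0.14 for Cthrc1.

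For swimming in Des-/-, 1 of the 10 genes was called with DESeq2 and 1 without both libraries numbered 3. Over all genes 3 were called, 7 without the filter, 339 with DESeq2, 0 in the fit of 6 libraries, 72 without both libraries numbered 3, and 0 to 51 when 1 library was left out. Leaving out 1 library, the changes ran from -2.78 to 0.55 for Postn, -4.48 to 0.31 for Tnc, -2.0 to 0.0796 for Fn1, -2.87 to 0.00896 for Thbs1, -1.89 to 0.54 for Thbs4, -3.67 to 1.71 for Lox and -4.24 to 2.17 for Cthrc1, lowest without replicate 3 of the swim and highest without replicate 3 of the non-swim group. The replicate block changed no call of the 10 genes in any contrast. This block was shared by all 4 groups, so it does not test a pairing of the Des-/- groups alone.

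For the interaction DESeq2 called 328 genes, against 0 in edgeR. Leaving out 1 library, it ran from -2.90 to 0.42 for Postn, -1.94 to 0.49 for Thbs4, -3.89 to 1.47 for Lox and -3.91 to 2.49 for Cthrc1. Why these counts moved was not tested. Depth limits Cthrc1 most, with 2 to 13 reads in Des+/+ libraries.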
